A study of Arabidopsis thaliana with 3 samples.

Results

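The plastid genome of Arabidopsis thaliana carries genes of photosynthesis proper and, beside them, genes of several other roles. Described here are the plastid-encoded proteins of the large and small ribosomal subunits (rpl and rps), the subunits of the plastid RNA polymerase (rpo), the plastid subunits of the NADH dehydrogenase-like complex (ndh), the conserved reading frames ycf1 to ycf4, clpP and matK. Members are the genes placed on the plastid genome whose symbol has one of these stems, a rule that reads the probe set annotation and no measured value. There are 40 such genes with a probe set named here, among 76 plastid genes and 13356 genes named by a probe set of a single gene. A further 6 probe sets carry a symbol of the same kind but read a gene outside the plastid genome, such as a mitochondrial ribosomal protein gene, and were left out.

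The 3 arrays each held leaf RNA of plants aged 2 weeks and of another genotype: MKK2 line A, MKK2 line B, and untreated Col-0, the background of both lines. The lines overexpress the MAP kinase kinase MKK2, in one case the wild-type form and in the other a constitutively active form named EE4. Line A is titled w.t.4 but its source name says EE4, while line B is titled EE4 but its source name says w.t.4, so no direction between the forms is given. The labels do not state the promoter of the transgene, whether a line is a single transformant, or how many plants were pooled. No value has a replicate error and no test across plants was possible, so every difference is one between single arrays. In whole leaves, fewer plastids or cells of a type and less RNA in each cannot be told apart.

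Plastid genes are transcribed by more than one enzyme. A bacterial-type polymerase, whose core is encoded by rpoA, rpoB, rpoC1 and rpoC2, transcribes most photosynthesis genes with the help of nuclear sigma factors, and nuclear phage-type polymerases transcribe mainly the housekeeping genes, the rpoB operon among them. Plastid ribosomes translate the resulting mRNAs and are built from plastid-encoded and imported nuclear-encoded proteins. The NDH complex of the thylakoid membrane returns electrons to the plastoquinone pool in cyclic flow around photosystem I. Most plastid transcripts lack a stable poly(A) tail, and the labels do not state how the RNA was primed for labelling.

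The leaf identity of the samples was checked on nuclear markers. The named leaf markers RCA, LHCB4.1 and PSAE1 had signals of 4841 to 5172 in line A, 5193 to 5838 in line B and 4324 to 5899 in Col-0, and the root hair gene EXPA7 lay under 25 on every array. The guard cell gene GC1 had signals of 315, 289.7 and 375 in line A, line B and Col-0. Signals of each array had been scaled to a common trimmed mean, and 45.5%, 42.7% and 42.0% of all probe sets lay under 25 in the same order. Signals under 25, which are imprecise on the MAS5 scale, were set to 25 before a ratio was taken. The 3′ to 5′ signal ratios of control transcripts, which increase as RNA degrades, follow in the order line A, line B and Col-0. The first actin control gave 4.09, 3.83 and 3.03, and the second 2.88, 3.08 and 2.83. The first GAPDH control gave 2.29, 2.39 and 2.19, and the second 1.15, 0.966 and 0.816. The actin and GAPDH ratios were thus all lowest in Col-0. The ubiquitin controls went the other way. The first gave 2.92, 3.02 and 3.75, and the second was also highest in Col-0, with 2.03 against 1.77 in line A. The part of RNA integrity in the results was not tested.

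The signal of most of these 40 genes differed little between the 3 arrays. Both lines were set against the same Col-0 array, so their ratios are not independent of each other. Against Col-0, line A had 0 members at least 2-fold higher, where 1.4% of all 22746 probe sets were, and 1 member, ndhB, at least 2-fold lower, against 0.391% of all probe sets. In line B no member was 2-fold or more higher or lower than in Col-0, against 0.941% and 0.536% of all probe sets. Between line A and line B no member differed 2-fold, while 0.585% of all probe sets were higher and 0.18% lower in line A. With 40 members, counts of 0 and 1 are near these shares. The median log2 ratio of the members was -0.017 for line A over Col-0, -0.027 for line B over Col-0 and -0.039 for line A over line B. Over the 35 members with a mean signal of 100 or more, where the floor plays no part, it was -0.0080, -0.012 and -0.041. Over all probe sets with a mean signal of 100 or more, the medians were -0.031, -0.030 and 0.0031.

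The distance between the lowest and the highest of the 3 arrays was small for most members. Its median was 1.19-fold over all 40 genes. Of the 35 members with a mean signal of 100 or more, 0 reached a span of 1.5-fold and the median was 1.18-fold. Of all 6105 probe sets that bright, 15.6% reached 1.5-fold and the median was 1.23-fold. At a mean signal of 1000 or more, however, the median span was 1.18-fold for 23 members and 1.16-fold for all 616 probe sets, of which 6.82% reached 1.5-fold, so at that brightness the median span of the members was not the smaller one. The widest span among these 35 members was the 1.44-fold of rps18. The remaining 5 members, rps14, rpoB, ndhB, ndhF and ycf2, had mean signals under 100.

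**Figure D1:**
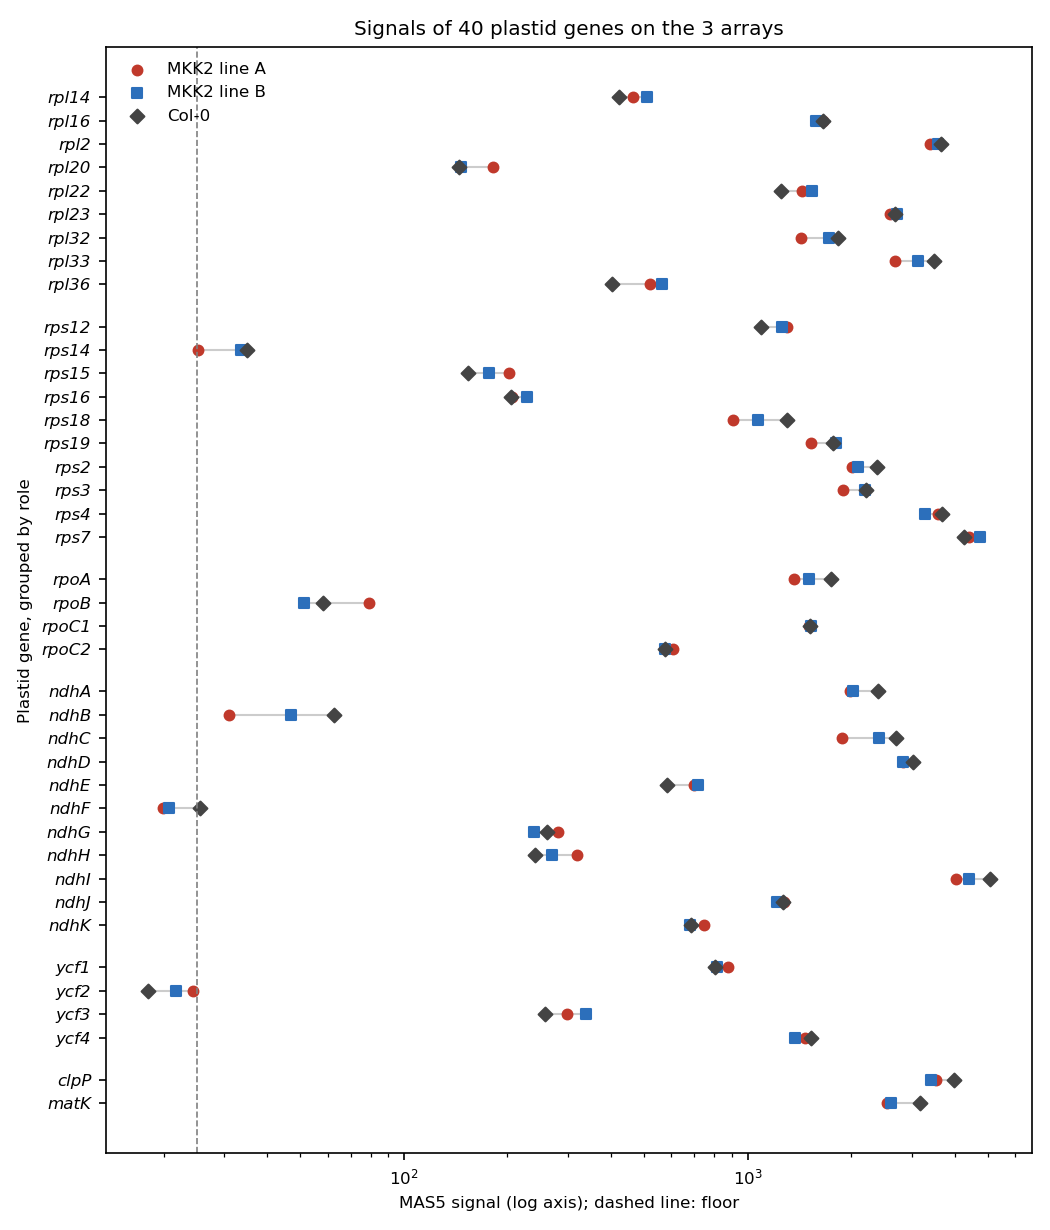
MAS5 signals (horizontal log axis) of the 40 plastid genes, grouped by role from top to bottom: large ribosomal subunit, small ribosomal subunit, polymerase, NDH, ycf, and clpP with matK. Each gene has a red circle for MKK2 line A, a blue square for MKK2 line B and a grey diamond for Col-0, and the dashed line marks the floor of 25. The symbols of most genes lie close together, with the widest gap at ndhB (30.9, 47.0 and 62.5), and signals of different genes come from different probes and are not comparable as transcript levels.

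Genes of the large ribosomal subunit, 9 in number, lay on both sides of Col-0. The highest ratios belonged to rpl36, a small zinc-binding protein in bacteria. Its signal was 519 in line A, 562 in line B and 404 in Col-0, with line A at 1.28-fold and line B at 1.39-fold of Col-0. Both lines were thus above the Col-0 array.

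The lowest ratios were those of rpl33 and rpl32, which lie apart on the plastid genome. The signal of rpl33, a protein known in tobacco to be needed for recovery from chilling, was 2691 in line A, 3141 in line B and 3476 in Col-0. These are 0.774-fold and 0.904-fold of Col-0, and the arrays stood in the order line A, line B, Col-0. For rpl32, known in tobacco to be essential, the signal was 1426 in line A, 1728 in line B and 1830 in Col-0.

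The dimmest probe set of this class was that of rpl20. Its signal was 181 in line A, 147 in line B and 145 in Col-0, with log2 ratios of 0.33 and 0.022, so line A stood above a nearly equal pair. The brightest was that of rpl2, whose bacterial counterpart sits at the peptidyl transferase centre. Its signals of 3394 in line A, 3589 in line B and 3659 in Col-0 spanned 1.08-fold. Among the other members, rpl14 and rpl22 were above Col-0 in both lines, with ratios of 1.10 and 1.21 for rpl14 and of 1.15 and 1.23 for rpl22. Those of rpl16 and rpl23, whose bacterial counterpart lies at the tunnel exit, were between 0.956 and 1.02. In line A over Col-0, 4 of the 9 genes were above and 5 below, with a median log2 ratio of -0.0013. In line B over Col-0, 5 were above and 4 below, with a median of 0.022.

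Genes of the small ribosomal subunit numbered 10 with a named probe set. The gene with the lowest ratio in both lines was rps18, the neighbour of rpl33. Its signal was 905 in line A, 1074 in line B and 1299 in Col-0, with line A at 0.697-fold and line B at 0.827-fold of Col-0. The order of the arrays was that of rpl33, and also that of other members such as rpl2, rpl32, rps2 and rps3.

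The highest ratio in line A was that of rps15, whose protein binds early to the 16S rRNA in bacteria. Its signal was 202 in line A, 177 in line B and 154 in Col-0, with line A at 1.31-fold and line B at 1.15-fold of Col-0. In line B the highest ratio was that of rps12, whose bacterial counterpart acts in decoding and whose mRNA is joined by trans-splicing. The brighter of its pair of probe sets had a signal of 1303 in line A, 1261 in line B and 1092 in Col-0. The dimmer one gave 258, 264 and 244 in the same order, so both probe sets of rps12 placed both lines above Col-0, by 1.19-fold and 1.06-fold in line A.

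The brightest probe set of the class, that of rps7, had signals of 4414 in line A, 4728 in line B and 4272 in Col-0. The dimmest, that of rps14, a gene transcribed together with psaA and psaB, had 25.1 in line A, 33.5 in line B and 34.96 in Col-0. All 3 lay near the floor, where ratios are imprecise. The genes rps2, rps3 and rps4 were below Col-0 in both lines, with ratios from 0.847 to 0.992, rps16 was at 1.01 and 1.12, and rps19 at 0.863 and 1.02. The median log2 ratio of the class was -0.13 for line A over Col-0 and 0.0059 for line B over Col-0, with 4 and 5 of 10 genes above.

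The polymerase genes had no direction in common. The signal of rpoC1, which encodes the β′ subunit, was 1506 in line A, 1524 in line B and 1515 in Col-0, a span of 1.01-fold and the narrowest of any member above the floor on every array. For rpoC2, the β″ subunit, it was 606 in line A, 576 in line B and 576 in Col-0. The 3 arrays hardly differed for either gene.

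The signal of rpoA, the α subunit, was 1362 in line A, 1513 in line B and 1744 in Col-0, with line A at 0.781-fold and line B at 0.868-fold of Col-0. That of rpoB, the β subunit, was 79.0 in line A, 51.1 in line B and 58.3 in Col-0, the dimmest probe set of the class. It was the member with the largest ratio of line A over line B, 1.55-fold, and the lines stood on opposite sides of Col-0. The genes rpoB, rpoC1 and rpoC2 are neighbours known to be transcribed as one operon, and rpoA lies elsewhere, at the end of a ribosomal protein cluster.

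The NDH genes include the member with the largest difference. The signal of ndhB, a membrane subunit encoded in the inverted repeat, was 30.9 in line A, 47.0 in line B and 62.5 in Col-0, with line A at 0.495-fold and line B at 0.753-fold of Col-0. All 3 signals were dim, and the line A ratio was no longer 2-fold under 5 of the other ways of processing. These were quantile normalization, loess centring, a floor of 50, a pseudocount of 16 and the omission of suffixed probe sets, which takes out that of ndhB. The ndhB probe set can read both copies of the gene.

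Of the bright NDH probe sets, ndhC had the lowest ratio in line A. The signal of this membrane subunit gene was 1882 in line A, 2412 in line B and 2701 in Col-0, with line A at 0.697-fold and line B at 0.893-fold of Col-0. Its neighbours ndhJ and ndhK, which share a known cotranscript with it, were at 1.00-fold and 1.09-fold in line A and 0.960-fold and 0.993-fold in line B. The 3 neighbours thus differed from one another in line A by more than in line B.

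The highest ratio in line A was that of ndhH, a subunit of the arm that faces the stroma. Its signal was 319 in line A, 269 in line B and 241 in Col-0, with line A at 1.33-fold and line B at 1.12-fold of Col-0. In line B the highest was ndhE, a membrane subunit, with 698 in line A, 716 in line B and 583 in Col-0. The order of the arrays thus differed between these genes, with Col-0 lowest for both.

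The brightest probe set, that of ndhI, an iron-sulphur subunit of the stromal arm, had 4052 in line A, 4400.4 in line B and 5069 in Col-0. For ndhA it was 1980.3 in line A, 2029.8 in line B and 2397 in Col-0, so both lines were below Col-0 for these neighbours. The dimmest, that of ndhF, had 19.9 for line A and 20.7 for line B, each under the floor, against 25.5 in Col-0, so its ratio carries no information. The genes ndhD and ndhG had ratios from 0.921 to 1.08.

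Of the 4 plastid genes of the stromal arm (ndhH, ndhI, ndhJ and ndhK), 3 were above Col-0 for line A and 1 for line B. Of the 7 of the membrane arm (ndhA to ndhG), 2 were above in line A and 1 in line B. These counts and the medians that follow take ndhF with its signals at the floor. The median log2 ratio of the stromal arm was 0.067 for line A and -0.035 for line B, and that of the membrane arm -0.089 and -0.12. The membrane arm includes the dim ndhB. In line A the stromal ndhH and ndhK, with mean signals of 276 and 703, were above Col-0. In the same arm ndhJ, with 1255, was at 1.00-fold, and ndhI, with 4507, was below. The part of brightness in this difference was not tested.

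Among the remaining members, ycf3, an assembly factor gene of photosystem I, had the highest ratios. Its signal was 298 in line A, 340 in line B and 258 in Col-0, with line A at 1.15-fold and line B at 1.32-fold of Col-0. The other assembly factor gene, ycf4, had 1471 in line A, 1371 in line B and 1531 in Col-0. The 2 genes thus lay on opposite sides of Col-0 in both lines.

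The signal of ycf1, whose product has been described as part of the protein import machinery of the inner envelope, was 878 in line A, 816 in line B and 803 in Col-0. The reference lists a full and a shorter copy of ycf1, and the probe set can read both. The probe set of ycf2, described as a gene of an import motor, lay under 25 on every array, at 24.4, 21.8 and 18 in line A, line B and Col-0, so no ratio is given.

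Both single genes were highest in Col-0. The signal of clpP, the plastid-encoded proteolytic subunit of the stromal Clp protease, was 3539 in line A, 3416 in line B and 3995 in Col-0, with line A at 0.886-fold and line B at 0.855-fold of Col-0. That of matK, the maturase gene inside the intron of trnK, was 2544 in line A, 2616 in line B and 3164 in Col-0, with line A at 0.804-fold and line B at 0.827-fold of Col-0. In the 2 genes the lines differed from each other by 1.04-fold or less and from Col-0 by more.

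Among the 35 members with a mean signal of 100 or more, the side of Col-0 on which a member lay went with the brightness of its probe set. This division was made after the values were seen. The 5 members under 100 did not follow it, with 1 above and 3 below Col-0 in line A, and 0 above and 4 below in line B, ndhF and ycf2 being set by the floor. Of 12 members with a mean signal between 100 and 1000, all 12 were above Col-0 for line A and 9 for line B, and the Col-0 array was the highest of the 3 for 0 of them. Of 23 members with a mean signal of 1000 or more, 4 were above Col-0 for line A and 6 for line B, and Col-0 was the highest array for 16. The median log2 ratio was 0.17 for line A and 0.16 for line B for the 12 of 100 to 1000, and -0.17 and -0.095 for the brighter 23.

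Probe sets outside the plastid genome showed a smaller difference in line A and one the other way in line B. With a mean signal of 100 to 1000, the 5467 such probe sets had a median log2 ratio of -0.026 for line A and -0.037 for line B. With 1000 or more, the 568 such probe sets had medians of -0.052 and 0.023. The plastid genes of photosynthesis were divided in the same way as the members: their 8 probe sets of 100 to 1000 had medians of 0.18 for line A and 0.22 for line B, and their 23 of 1000 or more had medians of -0.17 and -0.15. The shared Col-0 array enters all of these ratios.

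Across the 35 members with a mean signal of 100 or more, the log2 ratio correlated with the log2 mean signal with Pearson's r = -0.67 (Spearman's rho = -0.70) for line A over Col-0 and r = -0.55 (rho = -0.57) for line B over Col-0. For line A over line B it was r = -0.41 (rho = -0.32). The points share their arrays and are genes, not replicates, so these values are a description. Quantile normalization left the medians of the brighter members at -0.12 for line A and -0.094 for line B, and those of the members from 100 to 1000 at 0.13 and 0.18. Loess centring, which removes a trend of the ratio with signal common to all probe sets, gave -0.14 and -0.11 for the brighter and 0.19 and 0.19 for the members from 100 to 1000. Whether the trend lies in the RNA or in the response of the probes was not tested.

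**Figure D2:**
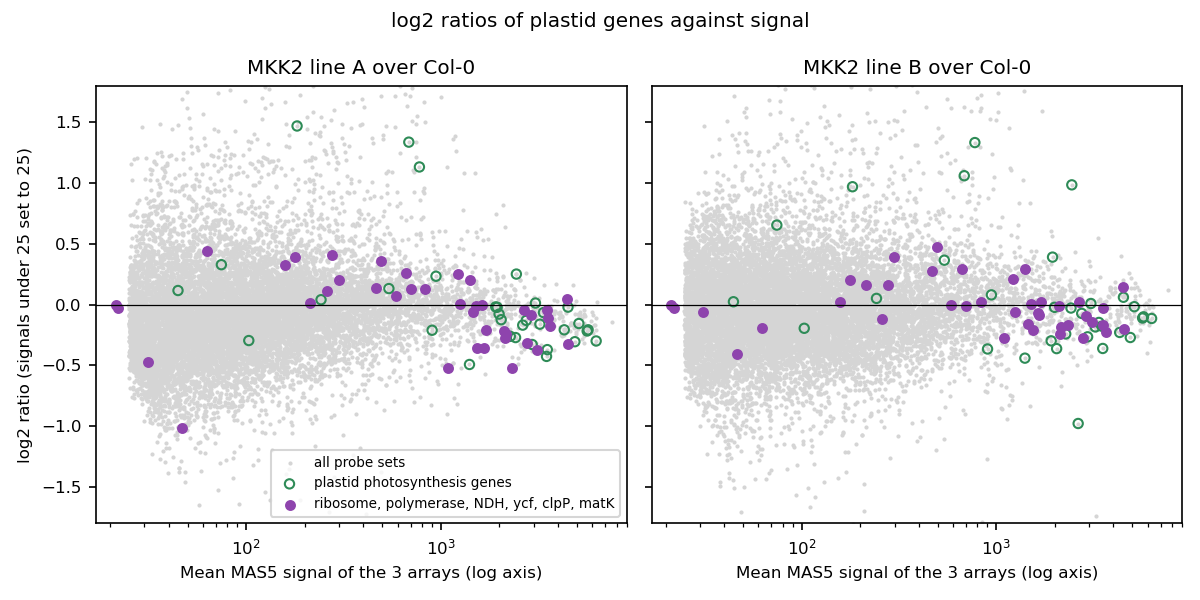
log2 ratio of MKK2 line A (left) and MKK2 line B (right) over Col-0 (vertical axis, from -1.8 to 1.8, beyond which some probe sets are not drawn) against the mean signal of the 3 arrays (horizontal log axis). Filled purple points are the 40 members, open green circles the 33 plastid genes of photosynthesis and grey points all probe sets with a mean signal of 25 or more. Members between 100 and 1000 lie mostly above 0 (12 of 12 in line A, 9 of 12 in line B) and those of 1000 or more mostly below it.

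Neighbouring genes on the plastid genome are often transcribed together, so the ratios were also read in gene order. The reference table gives the order of genes without their strand, and 6 runs of 3 or more neighbouring members were found. In the longest run, from rpoA to rpl23 with 9 measured genes, 3 were above Col-0 for line A and 5 for line B. Line A was below line B for 8 of these 9, with a median log2 ratio of -0.12. The run holds some of the highest ratios over Col-0 in line B (rpl36, rpl22 and rpl14) beside rpoA, which is among the lower ones.

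In the run from ndhE to rps15, the log2 ratios of 6 genes in line A were between -0.32 (ndhI) and 0.41 (ndhH), although these genes are known to share transcripts. In the run from rpl33 to clpP they were between -0.52 (rps18) and 0.33 (rpl20), with rpl33 and rps18, a known cotranscript, both low. Both belong to the 23 members with a mean signal of 1000 or more, of which 19 were below Col-0 in line A. In the run from rps2 to rpoB, the log2 ratios were between -0.24 (rps2) and 0.44 (rpoB, a dim probe set) in line A. Line B log2 ratios in that run were between -0.19 and 0.0091. They were between -0.24 and 0.30 from ndhE to rps15, and between -0.27 and 0.21 from rpl33 to clpP. In the longest run they were between -0.20 and 0.48. The genes of a run thus did not share one ratio in line A, and in line B the ratios also spread within these longer runs. In line A the spread went partly with brightness. From ndhE to rps15, ndhI and ndhA, with mean signals of 4507 and 2136, were below Col-0. The other genes of that run, with mean signals from 177 to 666, were above it. Against this, rps12 and rpl22, with 1218 and 1408, were above Col-0 in their runs. The part of brightness in the spread was not tested.

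**Figure D3:**
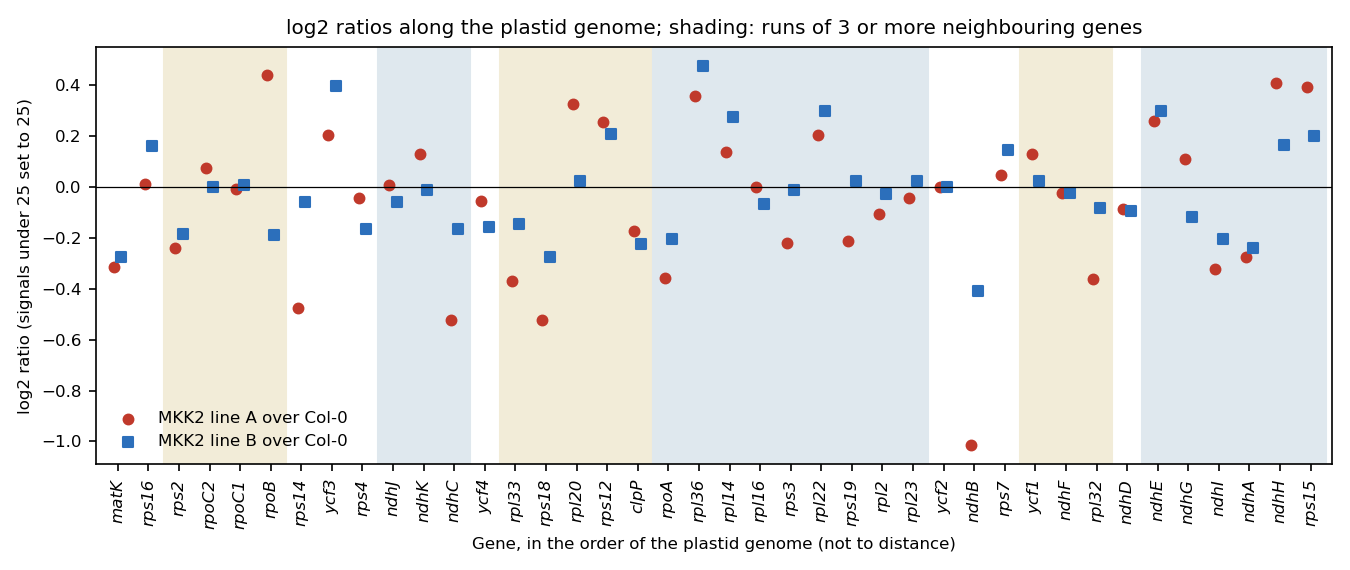
log2 ratio over Col-0 (vertical axis) of the 40 members in the order of their genes on the plastid genome (horizontal axis, evenly spaced), with red circles for MKK2 line A and blue squares for MKK2 line B. Shaded blocks mark the 6 runs of 3 or more neighbouring members. Ratios within a run spread widely, as between ndhI and ndhH in line A (-0.32 and 0.41), whose mean signals were 4507 and 276. The lowest point in line A is ndhB at -1.02.

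The genes of photosynthesis on the same genome had a wider range of ratios, from the lowest to the highest gene, than the members. Of these 33 genes, 3 (petG, rbcL and psbB) were 2-fold or more above Col-0 in line A and 2 (rbcL and psbB) in line B, and none was 2-fold lower. The highest ratio in line A was the 2.77-fold of petG, a small subunit gene of the cytochrome b6f complex, and the highest in line B the 2.52-fold of psbB, the CP47 gene of photosystem II. The lowest in line A was the 0.711-fold of petL, another small subunit gene of that complex, and the lowest in line B the 0.508-fold of psbA, the D1 protein gene of photosystem II. These ratios reached further up in both lines, and further down in line B, than those of the members with a mean signal of 100 or more. The plastid gene accD, of the acetyl-CoA carboxylase of fatty acid synthesis, had a signal of 1074 in line A, 908 in line B and 793 in Col-0. The remaining plastid genes, ccsA and cemA, were below Col-0 in both lines. Line A and line B were at 0.842-fold and 0.856-fold of Col-0 for ccsA, and at 0.878-fold and 0.895-fold for cemA. Spans of 1.5-fold or more between the arrays were found in 6 of the 33 genes of photosynthesis (18.2%), against 2 of the 40 members (5%), both of which were dim. With a mean signal of 1000 or more, 2 of 23 photosynthesis genes and 0 of 23 members had such a span. The median log2 ratio of the photosynthesis genes was -0.13 for line A and -0.10 for line B. Their interquartile range in line A was -0.26 to 0.041, against -0.25 to 0.13 for the members, so it was not the wider one. In line B it was -0.24 to 0.061, against -0.16 to 0.055 for the members. The difference between these groups of genes was not tested, since each genotype has a single array.

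The partners of these genes in the nucleus were few among the named probe sets. Of 39 listed nuclear genes of the plastid ribosome 10 were measured, of 19 of the NDH complex 3, of 13 of the Clp protease 4 and of 3 phage-type polymerases 1. None of 6 sigma factors or 12 polymerase-associated proteins has a probe set named here. No measured gene of these lists differed 2-fold in any comparison.

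The nuclear genes of the plastid ribosome had a median log2 ratio of -0.093 for line A and 0.11 for line B, and all 10 were lower in line A than in line B, with a median log2 ratio of -0.19. PRPL5 had the highest ratios over Col-0 in both lines, with a signal of 1187 in line A, 1371 in line B and 1167 in Col-0. The lowest were those of one gene of PRPL19 (AT4G17560), at 0.841-fold for line A and 0.992-fold for line B. In the plastid-encoded ribosomal genes line A was below line B for 7 of 9 of the large and 7 of 10 of the small subunit, with medians of -0.095 and -0.12. Of the 568 probe sets outside the plastid genome with a mean signal of 1000 or more, 61.1% had the lower signal in line A, and of the 5467 with 100 to 1000, 48.0% had.

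All 3 measured nuclear NDH genes were above Col-0 in line B, and NDHS had the highest ratio. This gene of a stromal subunit had a signal of 669 in line A, 768 in line B and 565 in Col-0, with line A at 1.18-fold and line B at 1.36-fold of Col-0. NDHL had the lowest, at 0.931-fold and 1.09-fold. Of the nuclear Clp genes, CLPT1, which encodes an accessory protein of the protease core, was at 1.23-fold in both lines. CLPT2, its relative, had the lowest ratio in line A, at 0.831-fold, and CLPR3 had the lowest in line B, at 1.10-fold. The phage-type polymerase gene RPOTmp lay under 25 on every array.

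**Figure D4:**
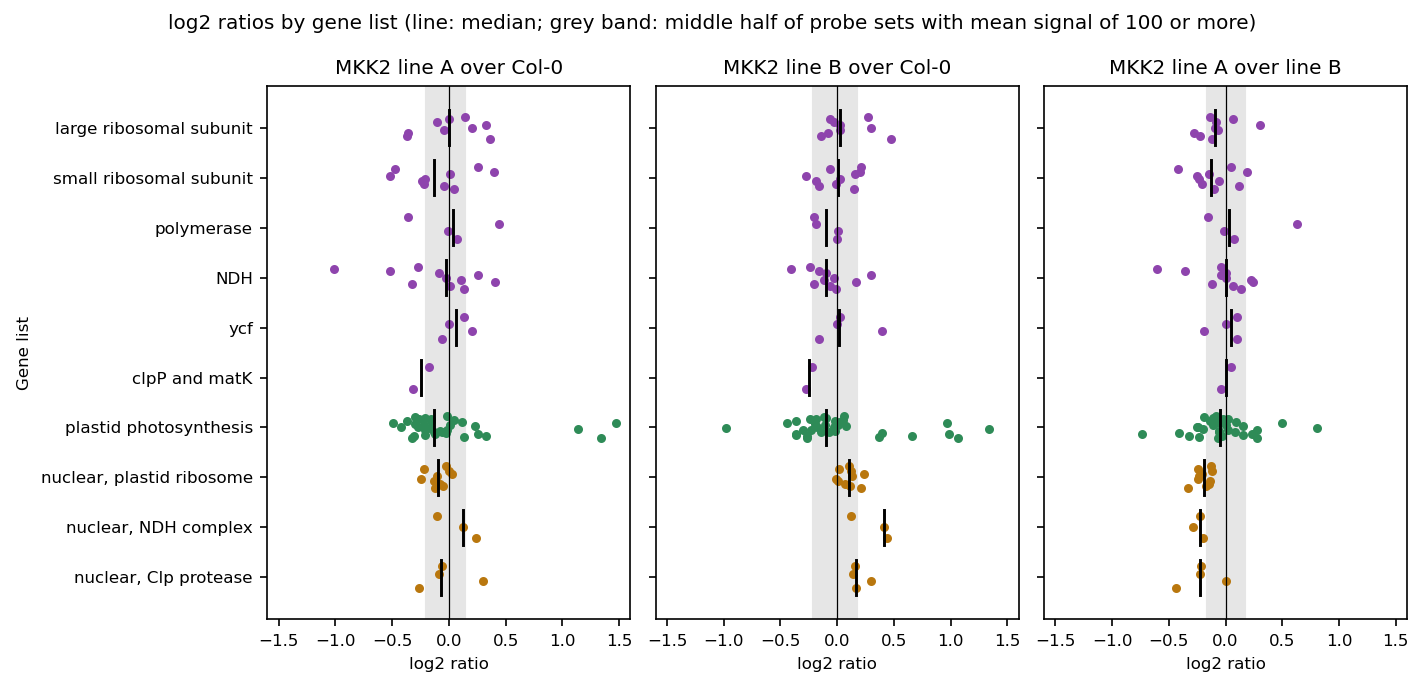
log2 ratios (horizontal axes) of single genes by list (vertical axis) for MKK2 line A over Col-0, MKK2 line B over Col-0 and MKK2 line A over line B. Purple points are the members by role, green points the plastid genes of photosynthesis and brown points the nuclear lists; black bars are medians and the grey band is the interquartile range of all probe sets with a mean signal of 100 or more. The 10 nuclear ribosomal genes all lie below 0 in line A over line B, and the photosynthesis genes have the widest range, up to 1.47 for petG in line A.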

How the data were processed

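Leaf RNA, labelled with biotin, was hybridised to 3 arrays. The deposited values are linear MAS5 intensities, 1 per probe set, as the submitters' processing notes name them, and their trimmed mean was 100.01 on each array. No header or label gives a software version, a genome build or detection calls. Each array was rescaled to a trimmed mean (2% cut at each end) of 100, 64 control probe sets were left out, signals under 25 were set to 25 and log2 ratios were taken over 22746 probe sets. The number of arrays limits the precision. Genes were named through the platform annotation and the TAIR10.1 gene table. A gene is represented by its brightest probe set, and rps12 is the one member with several. The reference annotation has 42 genes that meet the rule, and those beyond the 40 are not reported here. Probe sets of inverted repeat genes list both copies of one gene and were kept.

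The set of genes, the lists and the rules were chosen with earlier results of these data known, although the rule for members itself uses no measured value. Named members are the brightest and dimmest of each role, those with the highest and lowest ratio of each line over Col-0, and any that differed 2-fold. From other lists the highest and lowest with a signal of at least 100 are named. After their values were seen, rbcL, accD, ccsA and cemA were named too. The planned division of neighbouring genes by strand could not be made, since the table has no strand. Calling was tested on simulated data, with changes well above 2-fold planted in bright probe sets only. Changes near 2-fold at dim signals, such as that of ndhB, were therefore not covered. Computations used Python 3.11.15, numpy 2.4.6, pandas 2.3.3, scipy 1.17.1 and statsmodels 0.14.6.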

Additional observations from a re-analysis of the deposited data

Results flagged for a closer look

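The 25S ribosomal RNA control, left out of every comparison, gave signals of 44.8 (line A) and 60.6 (line B), against 28.9 (Col-0). The control was thereby at 2.09-fold of Col-0 in line B and 1.55-fold in line A. The Col-0 signal lay near the floor of 25, and all signals were under 100.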

How the results depend on the processing

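The results were recomputed on quantile-normalized signals, on the deposited signals without rescaling, and after loess centring with a span of 0.4. Other settings put the floor at 10 or 50 or replaced it by a pseudocount of 16. The rest averaged the probe sets of one gene, left out suffixed probe sets, or used 1.5-fold and 3-fold. The deposited signals already had a trimmed mean of 100.01 on each array, so leaving out the rescaling could change almost nothing. Averaging could change rps12 only. Limiting the members to the 35 with a mean signal of 100 or more was added after seeing the data. The median log2 ratio of the members moved by less than 0.1 under each, between -0.026 and 0.0068 for line A over Col-0, -0.060 and -0.011 for line B over Col-0, and -0.048 and -0.0078 for line A over line B. Single members were less stable. Under quantile normalization, loess centring and the pseudocount, 6, 4 and 4 of the 40 moved by more than 0.1 in line A over Col-0. In line B over Col-0 these counts were 0, 0 and 2, and in line A over line B 3, 2 and 3. The number of members 2-fold lower in line A than in Col-0, 1 as reported (ndhB), was 0 under quantile normalization, loess centring, the floor of 50, the pseudocount, without suffixed probe sets, in the 35 brighter members and at 3-fold. At 1.5-fold, 1 member (rpoB) was higher and 1 (ndhB) lower in line A than in line B, against 0 and 0 at 2-fold. The other counts of 0 stayed 0. No paired analysis was possible because each genotype has 1 array. Dim signals limit what can be said of ndhB, rpoB, rps14, ndhF and ycf2.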
